A study of Mus musculus with 23 samples.

Results

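Mouse embryonic stem (ES) cells that make Ago2 on doxycycline were followed for 96 h after the drug was removed. Here 103 genes shared an uneven course: their exon reads were lower at 24 h and higher than at the start by 96 h. They were chosen from the authors' mean exon reads of the time course, with 1 added to each mean. The mean over the 4 times had to be at least 50, the ratio of 24 h to 0 h at most 0.67 and the ratio of 96 h to 0 h at least 1.1. Of 18412 genes in the table, 12049 reached the mean of 50, 654 of these met the limit at 24 h, and 103 met both limits. The 551 others that were low at 24 h did not meet the limit at 96 h, and 4530 further genes met the limit at 96 h without the fall at 24 h. Because these values chose the genes, their course is described and not tested, while the rescue and the genotypes come from other libraries and are tested.

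Polyadenylated RNA was sequenced from 23 samples in 11 groups. All cells were ES cells kept on gelatin in serum and leukemia inhibitory factor, and every line but the wild type AB2.2 was Blm-/-, so a lack of the Blm helicase came with every Ago mutation. Cells called TT-FHAgo2 served for both doxycycline series. They are clonal lines that lack Blm and Ago1,2,3,4, carry CreERT2 and make Ago2 from the TT-FHAgo2 transgene on doxycycline. For the time course they had 2.5 µg/mL doxycycline for 48 h and were then grown without it, with RNA taken at 0, 24, 48 and 96 h (n = 2 each). Cells of the rescue, kept on 0.1 µg/mL, spent 96 h without it (n = 2), or the same 96 h followed by 48 h on 0.1 or 2.5 µg/mL (n = 2 each), and per the labels the higher dose gives Ago2 as in wild type. The dosed cultures were therefore also 48 h older, which cannot be told apart from the dose. No cells without the transgene are labelled as given doxycycline. In both series an effect of the drug itself therefore cannot be told apart from one of Ago2. The genetic series held clones with no Argonaute, Blm-/-;Ago1,2,3,4-/-;CreERT2 (n = 2); E7, the same with a floxed human Ago2 transgene, hAgo2fl (n = 3); B9, Blm-/-;Ago1,3,4-/- (n = 2); and AB2.2 (n = 2). Nothing in the labels says that libraries of a group came from separate cultures, so p-values measure the spread between these libraries only.

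Values are normalised exon reads per library unless introns are named, and libraries are numbered by depth within a group. Libraries held 32.9 to 62.4 M exon reads (time course), 24.7 to 53.8 M (rescue) and 13.5 to 53.7 M (genetic series). Libraries of a group differed by a median of 0.0733 to 0.0955 on the log2 scale in the time course, 0.0825 to 0.106 in the rescue and 0.305 to 0.570 in the genetic series, so the genetic series resolves less. The summed level of 10 ES cell markers lay between 216053 and 546785 in all 11 groups. Of 10 fibroblast feeder markers, 1 to 5 were at 0 in each group and their median level was at most 30.1. Their summed level was 1567, 1461, 1210 and 2223 at 0, 24, 48 and 96 h, most of it from S100a6, with 1313, 963, 714 and 1888; in the rescue the sum was 1565 without doxycycline, 1387 at 0.1 µg/mL and 1369 at 2.5 µg/mL, and in the genetic series 1505 in clones, 723 in E7, 1160 in B9 and 1938 in wild type. S100a6 was thus below its 0 h mean at 24 and 48 h and above it at 96 h. Col1a1 (41.7, 125, 106 and 73.2) and Thy1 (195, 338, 367 and 247) were above their 0 h means at all later times. The part of feeder cells in the results was not tested. Col3a1 was at 0 in all groups but wild type, at 3.35. Within the genetic series wild type was also highest for Acta2 (518, next B9 with 29.7), Col1a1 (282, next E7 with 48.2) and Col1a2 (34.7, next B9 with 8.65). By contrast S100a6 was highest in clones (1390) and Thy1 in B9 (204). Of the targeted genes, Ago1 was at 0 in the authors' means of every group but wild type, where it had 4104 reads. Ago2 averaged 11963, 11420, 11283 and 10794 reads at 0, 24, 48 and 96 h. It averaged 5819 in clones, 5209 in E7, 6734 in B9 and 6227 in wild type, so reads summed over the whole gene do not show the loss of Ago2 and do not check those labels. Ago3 averaged 1362 in clones, 1523 in E7, 1447 in B9 and 487 in wild type, so its reads were higher in the lines labelled as lacking it and do not check those labels either. In the time course Ago3 averaged 4533, 2655, 2316 and 2181 at the 4 times. Ago4 was at most 34.1 in every group. Tables of the 3 series were normalised apart, so levels are compared within a series.

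Argonaute proteins carry microRNAs to the 3′ untranslated regions (3′ UTRs) of messenger RNAs, which are then repressed and degraded. In mouse ES cells the miR-290 and miR-302 clusters supply the most abundant family, whose members share the seed that pairs with targets. Direct targets would be released as Ago2 is lost, while other genes follow through factors that those targets encode. The family is shown by 2 of its members (RefSeq, GRCm38.p6), with the seed, bases 2 to 8, in capitals, since the same 7 letters were looked up in the 3′ UTRs of the 103 genes.
mmu-miR-294-3p: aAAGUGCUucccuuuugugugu
mmu-miR-302b-3p: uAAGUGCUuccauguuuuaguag

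A match to that seed, AGCACTT, stood in the longest annotated 3′ UTR (GENCODE M21) of 14 of the 102 genes with one, or 13.7%, against 17.6% of 11965 genes with a mean of at least 50. A match is a description and not a shown target. The sites of 5 of these genes are printed with 9 bases on each side and the match in capitals, because they are the 5 with the largest falls at 2.5 µg/mL doxycycline, described further on. Ptgs1 encodes cyclooxygenase 1, Kcnf1 a potassium channel subunit, Creb5 a basic leucine zipper factor, Tbx20 a T-box factor of the heart and Mb21d1 the DNA sensor cGAS.
Ptgs1, chr2:36251667-36251691, plus strand, GRCm38: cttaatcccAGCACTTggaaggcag
Kcnf1, chr12:17173165-17173189, minus strand: aaggtctttAGCACTTctagctggc
Creb5, chr6:53696406-53696430, plus strand: tgcatgtatAGCACTTgaagaaatg
Tbx20, site 1, chr9:24718525-24718549, minus strand: tatgtgaaaAGCACTTgctgaacaa
Tbx20, site 2, chr9:24718498-24718522, minus strand: tttgagaacAGCACTTtgcatctct
Mb21d1, site 1, chr9:78431915-78431939, minus strand: atcgttaacAGCACTTattgctctt
Mb21d1, site 2, chr9:78431729-78431753, minus strand: aagtgtgctAGCACTTcattataat
Mb21d1, site 3, chr9:78431272-78431296, minus strand: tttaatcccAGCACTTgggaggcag
The Tbx20 sites lie side by side in a UTR of 7314 bases. All 8 printed sites share the 7 capital letters. The sites of Ptgs1 and Mb21d1 site 3 also have nearly the same bases on either side of them, while the others differ there.

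Over the 103 genes the median ratio to 0 h was 0.575 at 24 h, 0.821 at 48 h and 1.44 at 96 h. The lowest 24 h ratio was 0.150 and the highest 96 h ratio 7.02. At 24 h, 18 genes were at or below 0.5 of their 0 h mean, and at 96 h, 17 were at least 2 times it. The 48 h column was not part of the ratios in the rule, though it entered the mean: 78 genes were still below their 0 h mean there and 25 were above it. The 48 h mean was below the 24 h mean in 9 genes. Between libraries, both 24 h values were below both 0 h values for 102 genes and both 96 h values were above both 0 h values for 89. The means of these same libraries chose the genes, so such separation was largely set by the rule. Its share over all genes was not counted.

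**Figure D1:**
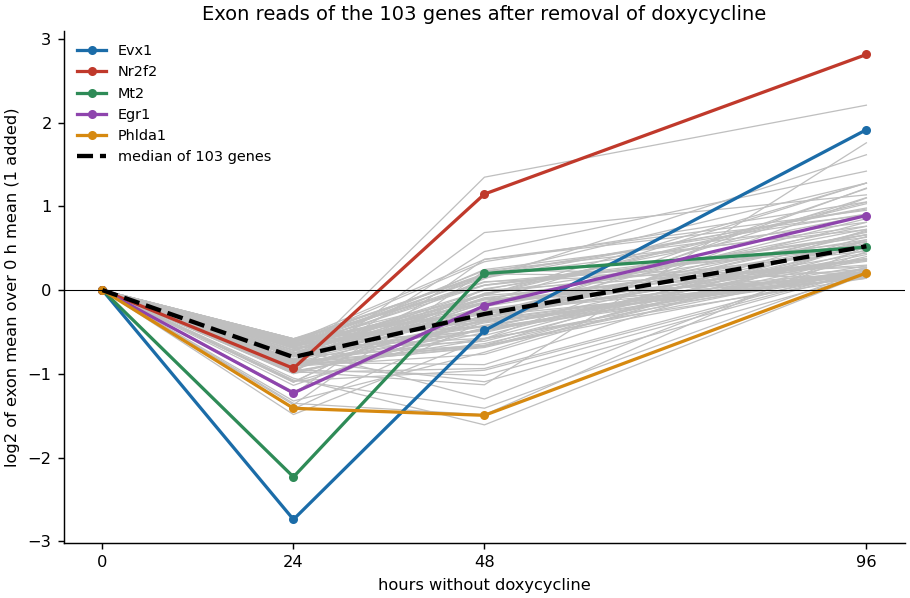
Each grey line is 1 of the 103 genes, as the log2 ratio of its mean exon reads (1 added) to the 0 h mean, against hours without doxycycline. The dashed median passes 0.575 of the start at 24 h and 1.44 at 96 h, and 5 coloured genes show the spread, from Evx1, lowest at 24 h, to Nr2f2, highest at 96 h.

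The limits were met narrowly by some genes. The members nearest to the 24 h limit were Zscan4b (0.6693), Tanc2 (0.6691) and Crb2 (0.669), and just outside it stood Ctbs (0.6704), Prdm9 (0.6711) and Srrm4 (0.6737). At the 96 h limit 1810043G02Rik (1.104) and Map10 (1.104) were inside, and Fgfbp1 (1.093), Vat1l (1.093) and Rapgef4 (1.088) outside. At the mean of 50, Cep112 (50.3), Tnfaip8l2 (50.8) and Zfp352 (52.4) were inside, and Hsf5 (47.0), Rhbg (44.1) and Armc2 (42.6) outside.

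Intron reads, which come mostly from unspliced RNA, were not used by the rule but come from the same libraries. For the 67 genes with a mean of at least 20 intron reads, the median log2 ratio to 0 h in introns was -0.75 at 24 h, -0.20 at 48 h and 0.53 at 96 h. The same genes had medians of -0.79, -0.20 and 0.53 in exons. Over the 11401 genes with that many intron reads the medians were -0.00, -0.01 and -0.00. Introns were below 0 h in 60 of the 67 genes at 24 h and above it in 54 at 96 h. The rule applied to the intron table picked 61 genes, of which 21 were among the 103.

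The 103 genes were of low abundance. Per kilobase of exon their median level over the 4 times was 64.4 reads, against 535 over the genes with a mean of at least 50, and they ran from 7.82 to 27514. Median exon length was 3288 bases, against 3010. No intron read at all was found for 10 of them (9.71%), against 286 of the larger set (2.38%). They lay on 20 chromosomes, with at most 15 on 1 of them. The AU-rich letters TATTTAT, an element of short-lived messenger RNAs, stood in 29.4% of their 3′ UTRs, against 30.3%.

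Giving doxycycline back asks whether these genes move in the other direction when Ago2 and the drug return together. At 2.5 µg/mL against no doxycycline, 72 of the 103 genes fell and 5 rose (limma, adjusted p below 0.05), while 26 were not called. Over all 13176 genes tested, 32.0% were lower and 31.8% higher at 2.5 µg/mL. The median log2 change was -0.60 for the 103 genes and 0.00 for all genes. Of the 551 genes that were low at 24 h and not higher at 96 h, 341 rose and 38 fell, with a median of 0.59. Of the 4530 genes that were higher at 96 h without the early fall, 3128 fell and 118 rose, with a median of -0.46. The share that fell was 69.9% for the 103 genes and 69.1% for those 4530, and it was not tested whether these differ.

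**Figure D2:**
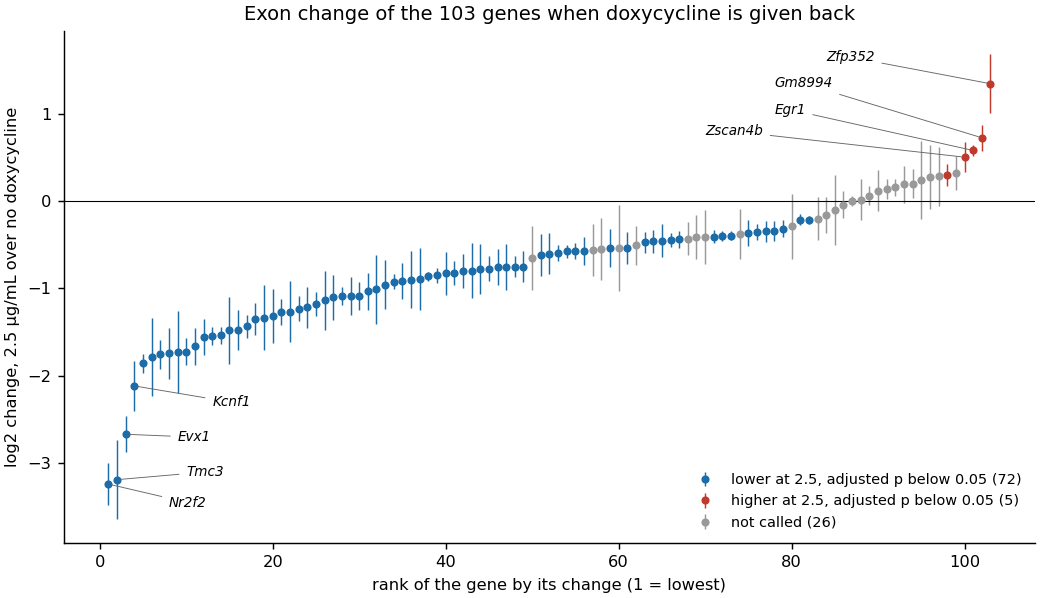
Log2 change of exon reads at 2.5 µg/mL over no doxycycline for each of the 103 genes, in order of size, with bars of 1 standard error from limma (2 libraries per group). The 72 genes that fell are blue, from Nr2f2 at -3.24, the 5 that rose are red, up to Zfp352 at 1.34, and 26 uncalled genes are grey.

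At 0.1 µg/mL against no doxycycline 47 genes fell and 3 rose, with 22.1% of all genes lower and 22.0% higher; the median log2 change was -0.39. With single libraries left out 32 to 42 fell. Both doses lowered 44 genes, 28 fell at 2.5 µg/mL alone and 3 at 0.1 µg/mL alone. At 2.5 against 0.1 µg/mL 29 fell and 6 rose, with 21.0% of all genes lower and 20.0% higher, and 18 genes fell in all 3 comparisons. In introns, 75 of the 103 could be tested at 2.5 µg/mL against none: 29 fell and 0 rose, with 22.1% of all 11580 genes lower and 24.3% higher. The same count of 0 came from voom, and 29 genes in either direction had an unadjusted p below 0.05. Each of the 29 also fell in exons, where 58 of the tested genes fell. Of the 4038 other genes higher at 96 h with introns tested, 39.2% fell. Without library 1 of no doxycycline, 19 of the 103 fell in introns.

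The genes are next described by role, and these role groups were put together after the values were seen. Their counts at 2.5 µg/mL stand beside 69.9% lower and 4.85% higher for all 103 genes. Over all genes tested 32.0% were lower and 31.8% higher. Whether any role group differs from the 103 was not tested. Besides genes taken by a rule (largest and smallest ratios, highest means, listed genes, largest changes), Plaur, Ptgs2, Dagla, Apom, Mb21d1, Csf2ra, Dok2, Wnt7b, Unc13a, Lrrn2 and Nckap1l were named after their values were seen.

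Metallothioneins are small proteins that bind zinc and copper, and their genes are switched on by the metal-sensing factor Mtf1 through metal response elements. Mt1 (ENSMUSG00000031765, chromosome 8, 94179082 to 94180327, GRCm38) and Mt2 (ENSMUSG00000031762, chromosome 8, 94172664 to 94173568) are neighbours and were abundant per kilobase of exon, with 27514 reads for Mt2, the highest of the 103, and 11674 for Mt1. Mt2 had 16291 and 16016 reads at 0 h, 3607 and 3280.1 by 24 h, 18934 and 18161 by 48 h, and 21796 and 24296 by 96 h. Its 24 h libraries were far below all others and the 3 other times did not overlap. Mt1 had 5755 and 6267 at 0 h, 2334 and 2324 by 24 h, 6976 and 7136 by 48 h, and 9922 and 9902 by 96 h, the same order of times. In introns Mt2 had 293 and 304 at 0 h, 57.02 and 51.9 by 24 h, and 472 and 453 by 96 h. A predicted gene on the other strand, Gm45774, shares 73.5% of the exon bases of Mt2, and whether counting used the strand is not given in the sources used here.

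Since both genes move together, the 250 bases before their RefSeq start sites (GRCm38.p6) are shown, with matches to TGCNCNC on either strand in capitals. This pattern allows any base where the core of a metal response element, TGCRCNC, has A or G, so it is looser than that core.
Mt1, chr8:94178839-94179088, plus strand: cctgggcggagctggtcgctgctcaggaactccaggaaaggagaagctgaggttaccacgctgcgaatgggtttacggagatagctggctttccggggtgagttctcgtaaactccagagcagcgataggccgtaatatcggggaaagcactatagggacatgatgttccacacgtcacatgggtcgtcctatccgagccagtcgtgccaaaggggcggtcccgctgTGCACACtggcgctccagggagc
Mt2, chr8:94172368-94172617, plus strand: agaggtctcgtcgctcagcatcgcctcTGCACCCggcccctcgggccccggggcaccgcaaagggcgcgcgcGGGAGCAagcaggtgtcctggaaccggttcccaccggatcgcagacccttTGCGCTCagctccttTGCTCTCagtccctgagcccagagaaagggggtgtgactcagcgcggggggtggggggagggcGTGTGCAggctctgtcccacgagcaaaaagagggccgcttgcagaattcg
The window of Mt2 held 5 matches to the loose pattern and that of Mt1 held 1. For every gene only the first RefSeq start listed was used, and bases outside its window were not searched. These counts therefore do not compare the metal response elements of Mt1 and Mt2 as whole genes. In Mt2, GGGAGCA, read on the other strand, and TGCTCTC have T at that base and are not matches to the core. These letters are frequent: 41.0% of 78 members with a promoter entry had a match, against 53.5% of 9661 genes. Among other motifs, AP-1 (TGANTCA) stood in 6.41% of the members' promoters against 3.87% of all, the E-box CACGTG in 10.3% against 8.78% and the GC-box GGGCGGGG in 26.9% against 31.9%.

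In the rescue Mt1 had 4661 and 4108 reads on 2.5 µg/mL and 5895 and 5695 without doxycycline, and fell (log2 change -0.41, SE 0.06, limma adjusted p = 4.56e-07). Mt2 had 14667 and 14137 without doxycycline, 11170.5 and 10744 on 0.1 µg/mL, and 12912 and 11942 on 2.5 µg/mL. It fell at 0.1 µg/mL (-0.39, SE 0.05, limma adjusted p = 1.09e-07) and at 2.5 µg/mL (-0.21, SE 0.05, limma adjusted p = 0.000242), and was higher at 2.5 than at 0.1 µg/mL (0.18, SE 0.05, limma adjusted p = 0.00257). The list of zinc handling genes held 5 others. Of these, 4 rose and 1 fell at 24 h against 0 h, where 26.5% of all genes were higher and 24.1% lower. The zinc exporter gene Slc30a1 was the one that fell (log2 change -1.52), and it rose at 96 h against 24 h (1.35); Mtf1 rose in both steps (0.42 and 0.47). Of the 5, 2 rose and 3 fell at 96 h against 24 h, and those that fell were Mt3 (-1.9995), Slc30a10 (-1.92) and Slc39a10 (-1.15). At 2.5 µg/mL 2 rose, Mt3 by 3.31 and Slc39a10 by 0.65, and 2 fell, Mtf1 (-0.81) and Slc30a1 (-0.34).

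Genes that answer to serum, growth factors or stress form a group of 9, of which 5 fell and 2 rose at 2.5 µg/mL. Egr1 (ENSMUSG00000038418), an immediate early transcription factor downstream of ERK signalling, had 5506 and 5263 reads at 0 h, 2456 and 2142 by 24 h, 4632 and 4839 by 48 h, and 9593 and 10373 by 96 h. No libraries of different times overlapped. In the rescue Egr1 had 3179 and 3665 reads without doxycycline, 5123 and 5606 on 0.1 µg/mL, and 4998 and 5191 on 2.5 µg/mL. It rose at 2.5 µg/mL (1.49-fold, log2 change 0.58, SE 0.06, limma adjusted p = 3.91e-09), although it was also higher after 96 h without doxycycline in the time course. Its introns had 18.2 and 37.6 reads without doxycycline, 49.96 and 82.9 on 0.1 µg/mL, and 12.6 and 15.0 on 2.5 µg/mL. Both intron libraries on 0.1 µg/mL were the highest. Both on 2.5 µg/mL were below both without doxycycline, the opposite direction to exons, and this intron difference was not called.

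Phlda1, another ERK-responsive gene, had 926 and 912 reads at 0 h, 290.1 and 400.4 by 24 h, 305 and 347 by 48 h, and 1091 and 1029 by 96 h, so it stayed low through 48 h. Cited4, a partner of the coactivators CBP and p300, had the same shape: 263 and 291 at 0 h, 117 and 99.0 by 24 h, 96.3 and 99.9 by 48 h, and 458 and 338 by 96 h. Both genes had 48 h libraries that lay below those of 0 h and 96 h. In the rescue Cited4 had 388 and 366 without doxycycline, 281 and 303 on 0.1 µg/mL, and 462 and 465 on 2.5 µg/mL. It fell at 0.1 µg/mL (-0.37, SE 0.13, limma adjusted p = 0.0227), a call lost without library 1 or 2 of no doxycycline or library 1 of 0.1 µg/mL, and rose at 2.5 against 0.1 µg/mL (0.67, SE 0.13, limma adjusted p = 0.000167). The rise at 2.5 µg/mL over none (0.30, SE 0.13, limma adjusted p = 0.0481) was lost without any single one of the 4 libraries of these groups.

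Atf5, a factor of the integrated stress response, had the pattern of Cited4 with 2779.7 and 2945 reads without doxycycline, 2156 and 2212 on 0.1 µg/mL, and 2913 and 2806 on 2.5 µg/mL. It fell at 0.1 µg/mL (-0.39, SE 0.06, limma adjusted p = 5.57e-06) and was not called at 2.5 µg/mL. The 18 other tested genes of the stress response list all fell at 24 h and all rose at 2.5 µg/mL. Of those 18, 4 rose and 5 fell at 96 h against 24 h, where 29.5% of all genes were higher and 27.8% lower. Ccnd2, which encodes cyclin D2, had 1796 and 1945 at 0 h, 987 and 911 by 24 h, 1225 and 1407 by 48 h, and 2822 and 2575 by 96 h. It fell at 2.5 µg/mL (-0.58, SE 0.07, limma adjusted p = 8.09e-08), with 1232 and 1241 reads there and 1793 and 1903 without doxycycline. Plaur, the urokinase receptor gene, also fell (-0.41, SE 0.08, limma adjusted p = 5.65e-05). Cyr61, a matricellular protein, had 921 and 1031 reads at 0 h, 476 and 523 by 24 h, 646 and 654 by 48 h, and 1237 and 1082 by 96 h. At 2.5 µg/mL Cyr61 fell, a call lost without library 1 of either group. Of 14 tested genes of the SRF and YAP list beside Cyr61, 4 rose and 7 fell at 24 h, 4 rose and 5 fell at 96 h against 24 h, and 6 rose and 4 fell at 2.5 µg/mL. Ptgs2, the inducible cyclooxygenase gene, had 113 and 124 at 0 h and 57.4 and 43.7 by 24 h, and was not called in the rescue.

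Of 12 tested genes of the ERK pathway list, 8 fell and 1 rose at 24 h against 0 h, with a median log2 change of -0.80. At 96 h against 24 h 7 of the 12 rose and 3 fell, and at 2.5 µg/mL 8 rose and 1 fell. Dusp6, a phosphatase induced by ERK, fell at 24 h (-1.08) and rose at 96 h against 24 h (0.33), and at 2.5 µg/mL it rose (0.85). Of 13 immediate early genes tested beside Egr1, 7 rose and 3 fell at 24 h, and 10 rose and 1 fell at 96 h against 24 h, and at 2.5 µg/mL 3 of 12 rose and 7 fell. Jun was not called at 24 h (-0.09), rose at 96 h against 24 h (1.63) and fell at 2.5 µg/mL (-1.52).

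Factors of patterning form a group of 8, of which 6 fell at 2.5 µg/mL and 0 rose. Evx1 (ENSMUSG00000005503, chromosome 6, 52313498 to 52318378, GRCm38), a homeobox gene of the posterior primitive streak, had 81.2 and 102 reads at 0 h, 17.0 and 8.74 by 24 h, 57.9 and 72.5 by 48 h, and 370.1 and 325 by 96 h. Its 96 h mean was 25.1 times its 24 h mean, the widest swing of the 103 genes, and its 24 h libraries were below those of every other time. In the rescue Evx1 had 328 and 357 reads without doxycycline, 167 and 165 on 0.1 µg/mL, and 58.8 and 47.4 on 2.5 µg/mL, without overlap. It fell at each step, by a log2 change of -1.04 (SE 0.21, limma adjusted p = 0.000188) at 0.1 µg/mL and -2.67 (SE 0.21, limma adjusted p = 1.13e-11) at 2.5 µg/mL against none.

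Nr2f2 (ENSMUSG00000030551, chromosome 7, 70351944 to 70366735), the orphan receptor COUP-TFII, had 64.7 and 62.4 reads at 0 h, 23.4 and 42.2 by 24 h, 157 and 127 by 48 h, and 473 and 432 by 96 h. It had passed its starting level by 48 h. In the rescue it had 358 and 331 reads without doxycycline, 169.6 and 122 on 0.1 µg/mL, and 30.1 and 41.9 on 2.5 µg/mL. Its fall at 2.5 µg/mL was the largest of the 103 genes, 9.46-fold (log2 change -3.24, SE 0.24, limma adjusted p = 4.18e-12). Introns of Nr2f2 fell too (-1.66, SE 0.45, limma adjusted p = 0.0033), a call lost without library 1 of either group. Nr2f2 was listed as a known target of the miR-302 family, but the 3′ UTR searched held no match to the 7 letters. Of the 18 other tested genes of that list, 13 rose and 1 fell at 24 h; at 96 h against 24 h 16 rose and 0 fell, and at 2.5 µg/mL 17 fell and 0 rose. Lats2, a kinase of the Hippo pathway, was the one that fell at 24 h (-0.35), and it rose at 96 h against 24 h (2.26). Of all genes, 26.5% were higher and 24.1% lower at 24 h, and 29.5% and 27.8% at 96 h against 24 h. At 2.5 µg/mL 32.0% were lower and 31.8% higher. The list was chosen with earlier results of these data known, so its counts are a description and not a separate test of microRNA targets.

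Tbx20 (ENSMUSG00000031965) had 162 and 121 reads at 0 h, 70.1 and 97.5 by 24 h, 129 and 143 by 48 h, and 375 and 316 by 96 h. It fell at 2.5 µg/mL (-1.76, SE 0.17, limma adjusted p = 9.21e-10), with 136 and 112 reads there and 427 and 413 without doxycycline. Meis2, a TALE homeobox gene, had 314 and 289 at 0 h, 197 and 179 by 24 h, 335 and 247 by 48 h, and 627 and 622 by 96 h. It fell at 2.5 µg/mL (-1.18, SE 0.14, limma adjusted p = 2.17e-08) and in introns (-1.26, SE 0.24, limma adjusted p = 8.44e-05). Zfhx2, a zinc-finger homeobox gene, was the second most abundant by mean reads, with 6245 and 7118 at 0 h, 4342 and 4387 by 24 h, 5926 and 6026 by 48 h, and 9593 and 9387 by 96 h, and it fell at 2.5 µg/mL (-0.86, SE 0.05, limma adjusted p = 4.63e-14). Antisense genes share 24.3% and 16.2% of its exon bases. Other neural and Hox genes of the list that holds Meis2 split at 24 h, where 4 of 13 rose and 7 fell. At 96 h against 24 h 6 of them rose and 3 fell, and at 2.5 µg/mL 6 rose and 3 fell.

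**Figure D3:**
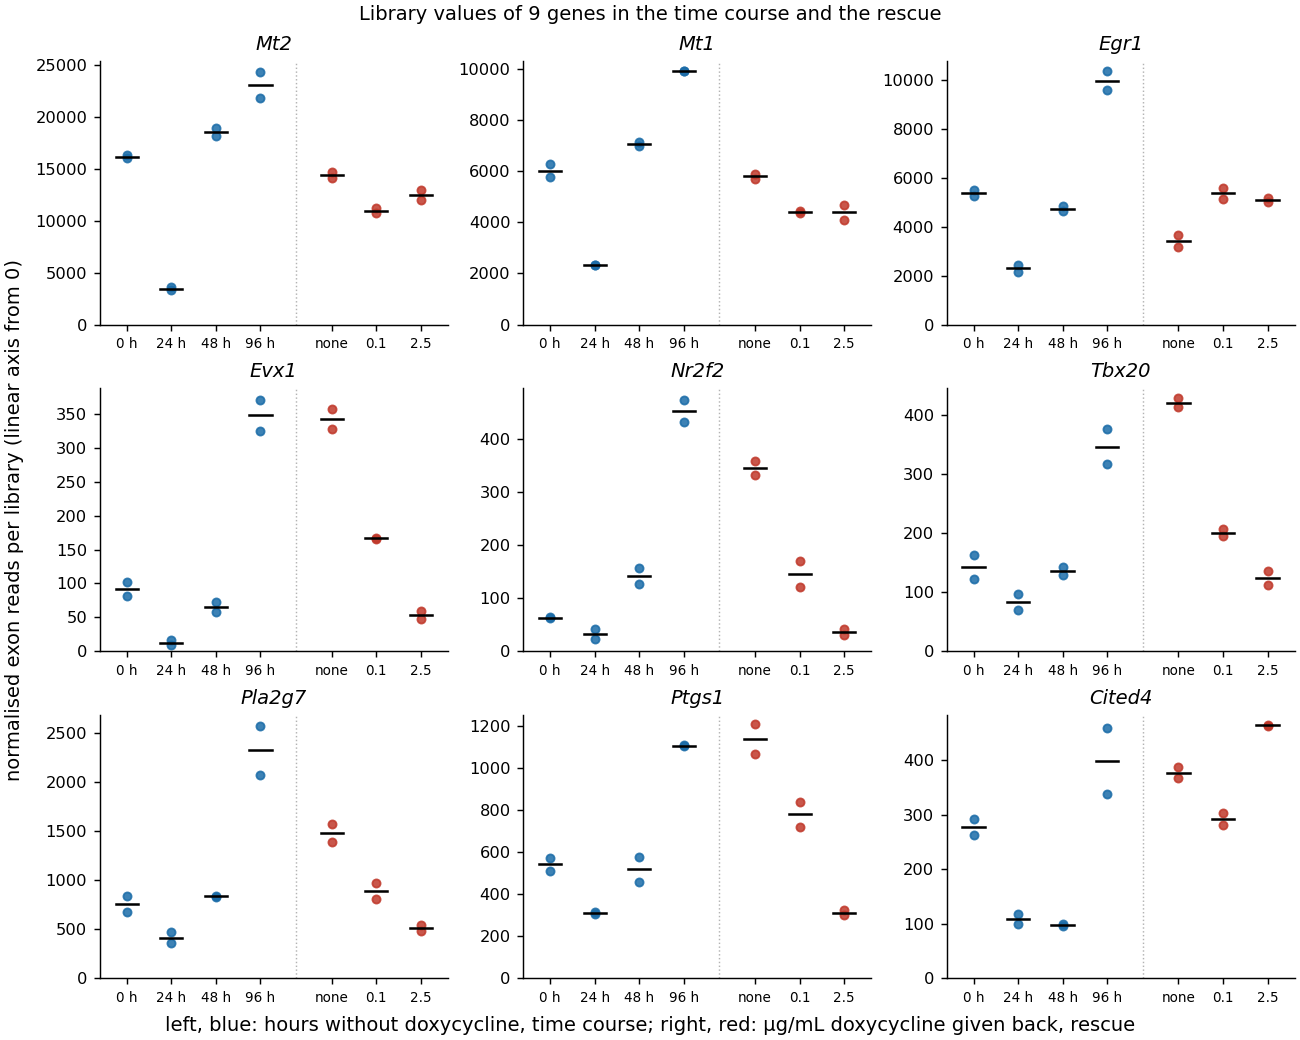
Normalised exon reads of 9 genes in each library, with the group mean as a bar: blue for 0, 24, 48 and 96 h without doxycycline, red for the rescue without doxycycline and at 0.1 and 2.5 µg/mL, whose table was normalised apart. Evx1, Nr2f2, Tbx20, Pla2g7 and Ptgs1 go down with the dose, Egr1 is lowest without doxycycline, and Cited4 and Mt2 are lowest at 0.1 µg/mL.

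Genes of lipid mediators numbered 6, of which 5 fell and 0 rose at 2.5 µg/mL. Ptgs1 (ENSMUSG00000047250), which makes prostaglandin precursors, had 569 and 511 reads at 0 h, 316 and 304 by 24 h, 458 and 577 by 48 h, and 1103 and 1107 by 96 h. In the rescue Ptgs1 had 1206 and 1064 without doxycycline, 719 and 836 on 0.1 µg/mL, and 298 and 325 on 2.5 µg/mL, 3.63-fold lower at 2.5 µg/mL than without (log2 change -1.86, SE 0.11, limma adjusted p = 2.81e-14). Its introns fell by nearly as much (-1.66, SE 0.17, limma adjusted p = 1.37e-08), with 88.3 and 91.9 reads on 2.5 µg/mL and 293 and 281 without.

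Slco2a1, the prostaglandin transporter gene, had 142 and 162 reads at 0 h, 40.4 and 67.0 by 24 h, 111 and 91.9 by 48 h, and 373 and 281 by 96 h, and fell at 2.5 µg/mL (-1.35, SE 0.19, limma adjusted p = 4.33e-07). Pla2g7, which degrades platelet-activating factor, had 842 and 673 at 0 h, 471 and 357 by 24 h, 838 and 827 by 48 h, and 2071 and 2576 by 96 h. It fell 2.91-fold at 2.5 µg/mL (log2 change -1.54, SE 0.10, limma adjusted p = 2.93e-13). Dagla, which makes the endocannabinoid 2-arachidonoylglycerol, fell by 1.56 on the log2 scale (SE 0.21, limma adjusted p = 2.77e-07). Apom, an apolipoprotein, was also called lower. That call was lost without library 1 or 2 of no doxycycline or library 2 of 2.5 µg/mL.

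Genes best known from innate immune and blood cells numbered 11, of which 8 fell and 0 rose at 2.5 µg/mL. Mb21d1, the DNA sensor cGAS, had 482 and 478 reads at 0 h, 277 and 323 by 24 h, 432 and 435 by 48 h, and 788 and 804 by 96 h, and fell at 2.5 µg/mL (-1.43, SE 0.13, limma adjusted p = 2.77e-10). Ikbke, a kinase of interferon induction, had 135 and 178 at 0 h, 99.9 and 100.5 by 24 h, 158 and 126 by 48 h, and 338 and 426 by 96 h, and fell in exons (-0.92, SE 0.20, limma adjusted p = 0.000317) and introns (-1.41, SE 0.22, limma adjusted p = 9.99e-06). Csf2ra, a subunit of the receptor for GM-CSF, fell by 0.75 (SE 0.12, limma adjusted p = 5.59e-06). Nckap1l, a blood cell subunit of the WAVE complex, was also called lower, a call lost without library 2 of no doxycycline.

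Leukocyte markers were read because of this group, from a list of 10 added after the values were seen. Their summed level was 777 at 0 h, 548 at 24 h, 579 at 48 h and 1099 at 96 h. Most of it came from Cd68, with 573, 411, 440 and 881 at these times. Cd68 was thus also below its 0 h mean at 24 h and above it at 96 h. In the rescue the sum was 634 without doxycycline, 584 at 0.1 µg/mL and 706 at 2.5 µg/mL. The macrophage genes Adgre1 and Cx3cr1 were at 0 in all 11 groups, and the pan-leukocyte gene Ptprc was at most 2.23. Detected markers did not move together. Spi1 had 59.7, 59.9, 85.85 and 153 at 0, 24, 48 and 96 h, while Itgam went down throughout, with 122.9, 49.7, 28.8 and 27.1. Cd14 had 16.7, 16.3, 16.5 and 33.4 at the same times. In each group 3 to 5 of the 10 markers were at 0. The part of such cells in the results was not tested. In bulk samples fewer cells of a type and less RNA per cell cannot be told apart.

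Ligands, matrix and surface proteins numbered 13, of which 11 fell and 0 rose at 2.5 µg/mL. Anxa3, a calcium-dependent phospholipid binding protein, had 149 and 120.4 at 0 h, 64.8 and 64.1 by 24 h, 46.7 and 40.3 by 48 h, and 169 and 139 by 96 h. Like Phlda1 and Cited4 it had a lower mean at 48 h than at 24 h. The guidance cue Ntn1 had 4108 and 4383 at 0 h and 2234 and 2519 by 24 h, and fell at 2.5 µg/mL (-0.40, SE 0.06, limma adjusted p = 5.95e-07). Wnt7b fell by 0.44 (SE 0.10, limma adjusted p = 0.000255).

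Genes of neurons and transport numbered 10, of which 9 fell and 0 rose. Tmc3, of the transmembrane channel-like family, had 27.1 and 23.0 reads at 0 h, 12.8 and 13.1 by 24 h, 57.9 and 72.5 by 48 h, and 118 and 121 by 96 h. Its 48 h values equal those of Evx1 because the deposited means of both genes are equal there. It fell 9.14-fold at 2.5 µg/mL (log2 change -3.19, SE 0.46, limma adjusted p = 8.11e-07), but it is scarce, with 9.15 and 4.74 reads on 2.5 µg/mL and 71.9 and 65.7 without doxycycline. The antisense gene Gm16638 shares 63.7% of its exon bases. Kcnf1 had 130.5 and 131 reads at 0 h, 51.0 and 52.4 by 24 h, 76.8 and 79.0 by 48 h, and 212 and 197 by 96 h, and fell at 2.5 µg/mL (-2.12, SE 0.29, limma adjusted p = 3.1e-07). Slc35d3, a nucleotide sugar transporter gene, had 112 and 112 at 0 h, 44.6 and 37.9 by 24 h, and 193 and 200.4 by 96 h, and fell too (-1.48, SE 0.23, limma adjusted p = 2.25e-06). Unc13a, which primes synaptic vesicles, fell by 1.28 (SE 0.15, limma adjusted p = 2.97e-08). Lrrk1, a kinase with leucine-rich repeats outside these groups, had 48.3 and 35.0 at 0 h, 26.6 and 14.6 by 24 h, and 115 and 112 by 96 h, and fell at 2.5 µg/mL (-1.34, SE 0.37, limma adjusted p = 0.0027).

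Zinc-finger genes numbered 8, of which 6 fell and 2 rose at 2.5 µg/mL. Those that rose are known from the burst of expression of the 2-cell embryo, which a small share of ES cells also shows. Zfp352 had 59.0 and 56.9 reads at 0 h, 31.9 and 29.1 by 24 h, 31.6 and 40.3 by 48 h, and 71.9 and 90.6 by 96 h, close to the lower limit of abundance. In the rescue it had 31.5 and 34.5 without doxycycline, 60.3 and 70.7 on 0.1 µg/mL, and 65.3 and 111 on 2.5 µg/mL, and rose 2.53-fold at 2.5 µg/mL (log2 change 1.34, SE 0.33, limma adjusted p = 0.00103). Zscan4b had 229 and 213 at 0 h, 189 and 106 by 24 h, 202 and 163 by 48 h, and 432 and 369 by 96 h; it has near-identical copies, between which reads may be split. It rose at 2.5 µg/mL (0.50, SE 0.17, limma adjusted p = 0.0131), a call lost without library 1 of no doxycycline or library 2 of 2.5 µg/mL. Of the other genes of the 2-cell list, 0 of 7 tested rose and 1 fell at 24 h, and 6 of 7 rose and 1 fell at 96 h against 24 h. At 2.5 µg/mL 2 of 8 rose and 0 fell. The gene that fell in both steps was Eif1a (log2 change -0.32 and -0.20). It was also 1 of the 2 that rose at 2.5 µg/mL (0.64), beside Zscan4d (0.46). Eif1a was far more abundant, with 19824 reads at 0 h against 512 for Zscan4d.

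Gm8994, a predicted gene without a described role, was the last of the 5 that rose at 2.5 µg/mL, with 366 and 428 reads there and 219 and 262 without doxycycline (1.65-fold, log2 change 0.72, SE 0.15, limma adjusted p = 0.000138). In the time course it had 272 and 329 at 0 h, 188 and 201 by 24 h, 340.1 and 324 by 48 h, and 617 and 571 by 96 h. The group of 4 cilium genes had 2 that fell and 0 that rose, and 32 of the 103 genes were left without a role.

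Genes with a seed match were set beside the rest. At 2.5 µg/mL 11 of the 14 members with a match fell and 0 rose, with a median log2 change of -1.15. Among the 88 members with a 3′ UTR and no match, 60 fell and 5 rose, with a median of -0.57. Among other genes 1031 of 2096 with a match fell (49.2%), against 2895 of 9769 without one (29.6%). In the time course, which chose the genes, the 14 had median log2 ratios of -0.83 at 24 h and 0.67 at 96 h, and the 88 had -0.79 and 0.47. Creb5, with 1 match, had 58.0 and 48.1 reads at 0 h, 31.9 and 20.4 by 24 h, 73.0 and 99.1 by 48 h, and 104 and 132 by 96 h, and fell at 2.5 µg/mL (-1.79, SE 0.45, limma adjusted p = 0.00105).

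The genotypes ask whether the genes differ between lines with different Argonautes. In clones against E7, which differ by the human Ago2 transgene, 4 of the 103 genes rose and 0 fell, against 0.715% higher and 0.791% lower of 13142 genes tested. The median log2 change was 0.71 for the 103 genes, 0.02 for all genes and 0.32 for the 4517 tested genes that were higher at 96 h without the early fall. Of the 103 changes, 83 were positive, and 34 had an unadjusted p below 0.05 (limma). Among those 4517 genes, 3283 changes were positive and 1125 had an unadjusted p below 0.05 (limma). It was not tested whether these shares differ. With voom 6 members were called higher and 0 lower. All 4 calls were lost without clone library 2 or E7 library 2, and with only these 2 groups fitted.

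Anxa3 had 267 and 136 in clones and 36.4, 49.5 and 17.9 in E7 (log2 change 2.54, SE 0.53, limma adjusted p = 0.0446), but also 346 and 233 in wild type, so the clones did not exceed wild type. Meis2 had 865 and 704 in clones and 229.6, 151 and 125 in E7 (2.25, SE 0.40, limma adjusted p = 0.0261). Mt1 had 7369 and 20064 in clones and 3146, 2315 and 4639.7 in E7 (1.91, SE 0.40, limma adjusted p = 0.0444). In these 3 genes no clone library overlapped an E7 library, though the clone libraries themselves lay far apart for Mt1. Evx1 had 459 and 183 in clones and 58.7, 40.3 and 0 in E7 (4.43, SE 1.55, limma adjusted p = 0.162) and was not called. Nr2f2 had 137 and 345 in clones and 45.5, 35.7 and 84.3 in E7 (2.06, SE 0.62, limma adjusted p = 0.122) and was not called either. Mt2 had 17173 and 12208 in clones and 7064, 6210.4 and 12681 in E7 (0.82, SE 0.33, limma adjusted p = 0.206), where the groups overlapped.

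**Figure D4:**
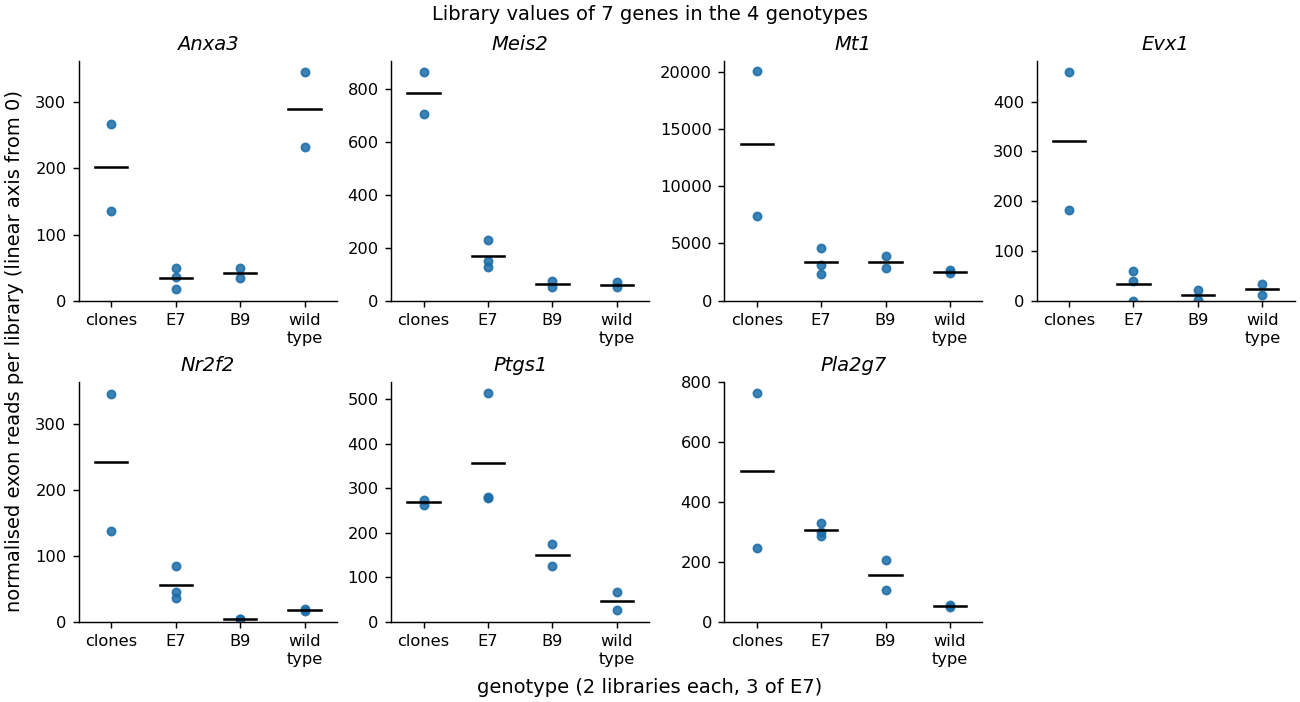
Normalised exon reads of 7 genes in each library of the clones, E7, B9 and wild type, with the group mean as a bar. Anxa3, Meis2 and Mt1, called in clones against E7, have both clone libraries above all 3 of E7, while both clone libraries of Ptgs1 are below all 3 of E7 and Anxa3 is also high in wild type.

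Clones against wild type differ by the Argonautes, Blm and the CreERT2 transgene together. Here 28 of the 103 genes rose and 1 fell, against 10.9% higher and 7.72% lower of all genes, with median log2 changes of 1.054 and -0.01. Among the 4517 genes higher at 96 h without the early fall 26.7% rose, and 27.2% of the 103 did. Of these 28 genes, 25 also fell at 2.5 µg/mL, where 72 of the 103 and 32.0% of all genes fell, and the difference was not tested. Without wild-type library 2 the count was 14, and without wild-type library 1 it was 16. Meis2 had 865 and 704 in clones and 50.3 and 70.3 in wild type (log2 change 3.69, SE 0.43, limma adjusted p = 0.000677). Ikbke had 239 and 289 in clones and 22.3 and 24.0 in wild type (3.45, SE 0.47, limma adjusted p = 0.00142). Lrrn2, a surface protein with leucine-rich repeats, rose by 2.87 (SE 0.33, limma adjusted p = 0.000632). Pla2g7 had 764 and 245 in clones and 48.6 and 57.3 in wild type (3.01, SE 0.53, limma adjusted p = 0.00405). The adaptor gene Dok2 was the one that fell, with 171 and 45.4 in clones and 465 and 653 in wild type (-2.63, SE 0.57, limma adjusted p = 0.0106), and it was not called without wild-type library 2.

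E7 against wild type had 8 members higher and 3 lower, against 3.10% and 1.46% of all genes. Ptgs1 had 281, 514 and 279 in E7 and 66.5 and 25.9 in wild type (3.01, SE 0.46, limma adjusted p = 0.00665). Leaving out wild-type library 2 ended that call and left 0 members called in either direction. Anxa3, Cyr61 and Dok2 were the 3 lower in E7. Of the 28 genes higher in clones against wild type, 7 were also higher in E7, and these comparisons share the wild-type libraries. B9 against wild type had 0 members called in either direction by limma and by voom, with 14 at an unadjusted p below 0.05, against 0.0152% higher and 0.0533% lower of all genes. The median log2 change was -0.14. Anxa3 had 34.5 and 49.0 in B9 and 346 and 233 in wild type, without overlap and not called (-2.76, SE 0.58, limma adjusted p = 0.109).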

How the data were processed

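Polyadenylated RNA of 23 samples was read in 6 deposited tables, exons and introns of each series, for 18412 genes. Their signal is the authors' mean of normalised reads over the libraries of a group, per the file headers. TopHat2 2.0.12, DESeq and mm10 are named per the submitters' processing notes; for the read counter, its use of strand and its annotation, nothing was given in the sources used here. Because a mean adds up whole reads, each worth 1 fixed step in its library, library values were recovered for 99.975% of 405064 values. The 101 unsolved E7 exon values make up 17.7% of the summed exon mean of E7 and concern no member; these genes were left out of genetic tests. The columns carry no replicate number, so libraries are numbered by depth and clone libraries cannot be named.

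The test was limma 3.58.1 (R 4.3.3) with a trended prior on log2 of library values plus 1. All groups of a table shared 1 fit, limited to genes with a mean of at least 10. Calls need an adjusted p (Benjamini-Hochberg, all genes tested) below 0.05, and fold changes are on this scale, which understates those of scarce genes. The design had assumed deposited library values; recovered ones took their place. On simulated data, 90% of 1.5-fold changes at 2.5 µg/mL against none (13164 genes) and 12.5% of those in clones against E7 (13167 genes) were called, and 52.5% of 2-fold changes in clones against E7. Positions are from GENCODE M21 (GRCm38, the build mm10), and sequences from RefSeq and GENCODE. All 103 members matched 1 annotated gene.

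Genes are named by a rule: the 8 members with the largest 96 h to 24 h ratio, lowest 24 h ratio, highest 96 h ratio and highest mean, list members, the 6 largest changes each way at 2.5 µg/mL, those called in clones against E7, and 3 on each side of each limit. The members and lists were chosen with earlier results of these data known. Alternatives were other pseudocounts, filters, size factors, fits and left-out libraries. Some genes that the rule takes are not reported here.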

Additional observations from a re-analysis of the deposited data

Results flagged for a closer look

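In 10 genes the libraries went in opposite directions in the time course and the rescue. Both 96 h libraries were above both 0 h libraries, while both rescue libraries without doxycycline were below both at 2.5 µg/mL. Of these, 5 were called in the rescue, with a log2 change at 2.5 µg/mL over none of 1.34 for Zfp352, 0.72 for Gm8994, 0.58 for Egr1, 0.50 for Zscan4b and 0.30 for Cited4. The others were not called, at 0.32 for Rhov, 0.28 for AF067061, 0.20 for Prss50, 0.19 for Ptgs2 and 0.0607 for Tmcc3. The difference between the series was not tested, because their tables were normalised apart.

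In 2 genes the clones were below E7 in every library, while the cells without doxycycline were above those at 2.5 µg/mL in every library. The log2 change of clones over E7 was -0.35 for Ptgs1 and -0.21 for Adam1a, neither was called, and the difference was not tested. Adam1a shares 63.7% of its exon bases with Gm42878 on the same strand.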

How the results depend on the processing

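No paired analysis was possible because the columns are group means that carry no replicate number. The planned edgeR test was not run, since the deposited values are not counts; limma voom on the recovered reads took its place and was chosen after seeing the data. Counts of members higher and lower kept within 1.5 times under other size factors, pseudocounts and minimum means. Under voom, 1 member was higher at 0.1 µg/mL against none, 2 were lower in clones against wild type and 4 were higher in E7 against wild type. With only the 2 groups compared in the fit, 0 were higher in clones against E7, 2 were lower in clones against wild type and 13 were higher in E7 against wild type. The cause was not tested. Stricter ratios of 0.6 and 1.2 picked 44 genes, and the intron table picked 61.

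With single libraries left out, where a lone library is assumed to vary like the other groups, 3 to 4 members were higher and 57 to 64 lower at 2.5 µg/mL against none, 1 to 2 higher and 32 to 42 lower at 0.1 µg/mL against none, and 3 to 6 higher and 25 to 31 lower at 2.5 against 0.1 µg/mL. In introns 0 to 1 were higher and 19 to 30 lower. Among genotypes, 0 to 5 were higher and 0 to 1 lower in clones against E7, 14 to 26 and 0 to 1 in clones against wild type, 0 to 6 and 0 to 2 in E7 against wild type, and 0 to 1 and 0 in B9 against wild type. Of 138 tests of named genes, 84 kept their call under every alternative, 51 lost it under at least 1, 3 were uncalled as reported, and 0 changed direction. Without clone library 1, Nr2f2 was called in clones against E7 (log2 change 2.72). The genetic series has the widest spread between libraries and so resolves the least.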
